A study of Bos taurus with 20 samples.

Results

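The genes described here are those that encode the proteins of the cytosolic ribosome, measured in bovine neck muscle. They were chosen by symbol: RPL or RPS followed by a number, RPLP0, RPLP1, RPLP2, RPSA and FAU, without S6 kinases, mitochondrial ribosomal proteins and pseudogenes. The array held 82 such genes of 14878 named genes on 21475 probes, 50 of the large and 32 of the small subunit. For each gene the probe of highest mean signal was used, and only RPL15 had 2 probes. Of the 82 genes, 81 had a signal high enough to be tested, 49 of the large and 32 of the small subunit. RPL10L, a copy of RPL10, was above background on 1 array only and was not tested. RPL39L and RPS4Y1 were not among the matched probes and were not analysed here. A further 7 probes were left out because their annotation pointed to different genes or to a pseudogene.

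The study compared muscle of 10 cattle, 5 untreated controls and 5 animals given dexamethasone, a synthetic glucocorticoid, with estradiol, an oestrogen. Each treated animal received 0.4 mg of dexamethasone orally every day over 31 days and 6 weekly injections of 5 mg estradiol into the muscle. Muscle was kept under vacuum at 4 °C, and each animal was sampled at day 0 and at day 14, which made 4 groups of 5 arrays. The groups are called control day 0, control day 14, treated day 0 and treated day 14. Both agents were given together, so their effects cannot be told apart. The sampled muscle is a mix of cells, and fewer cells of a type cannot be told apart from less RNA per cell. Of 17 skeletal muscle markers, 14 were tested, ACTA1, CKM, DES and TTN among them. MYH2, TNNI2 and MYLPF were not.

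A ribosome is built from a large and a small subunit, each made of ribosomal RNA and many proteins. The small subunit reads the messenger RNA, and the large subunit joins the amino acids. Messenger RNAs of ribosomal proteins begin with a terminal oligopyrimidine (TOP) tract, through which mTOR signalling and the RNA-binding protein LARP1 set their translation together. In muscle, ribosome content sets the capacity for protein synthesis, and glucocorticoids are known to dampen that synthesis. Mammalian genomes carry many processed copies of these genes. Whether a probe also bound such copies was not tested.

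Values below are log2 of the processed spot intensity scaled to a common 75th percentile across arrays, called log2 signal. Before that scaling, the 75th percentile lay between 657 and 949 intensity units at day 0 and between 278 and 534 at day 14, so that all storage changes are relative to an array signal that was itself lower after storage. The arrays lay on 6 slides read in 3 scan sessions, and slide 6, read alone in session 3, held 4 arrays: control animals K3 and K8 at day 14, control animal K10 at day 0 and treated animal DE27 at day 0. Slides 1 and 3 held only day 0 arrays and slides 2 and 4 only day 14 arrays. Both days of a treatment shared a slide only on slide 6 in controls and slide 5 in treated animals. Storage can therefore not be fully told apart from slide. Each session held both days of the control animals, but session 3 held no treated day 14 array. In treated animals, storage can therefore not be fully told apart from session either. The log2 fold changes are given ± standard error (SE) from limma, with p adjusted by Benjamini-Hochberg over all 15431 tested probes. A gene is said to have risen or fallen where this adjusted p was under 0.05.

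Averaged over the 79 ribosomal protein genes with a value on all arrays, log2 signal was highest in control muscle at day 0. The group means were 14.23 ± 0.13 (SD, n = 5) in control day 0, 13.81 ± 0.14 in control day 14, 13.96 ± 0.27 in treated day 0 and 13.86 ± 0.15 in treated day 14. The control arrays were at 14.40, 14.24, 14.18, 14.28 and 14.04 at day 0 and at 13.84, 13.88, 13.75, 13.60 and 13.98 at day 14 (animals K3, K6, K8, K9 and K10 in this order). The lowest control array at day 0, that of K10, was above the highest at day 14, that of the same animal. The treated arrays were at 13.49, 14.12, 14.08, 14.01 and 14.12 at day 0 and at 13.95, 13.76, 13.93, 14.02 and 13.66 at day 14 (animals DE27, DE29, DE30, DE31 and DE32). Both treated groups overlapped, and DE27 at day 0, an array of slide 6, was the lowest of all 20.

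The balance of the subunits was close to constant. The mean over the 48 large subunit genes minus that over the 31 small subunit genes was -1.93 ± 0.08 (SD, n = 5) in control day 0, -1.96 ± 0.08 in control day 14, -2.0 ± 0.10 in treated day 0 and -2.0 ± 0.05 in treated day 14. All 4 groups overlapped, between -2.12 and -1.83. The size of this difference rests on how bright the probes are and is no measure of the subunits' amounts.

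**Figure D1:**
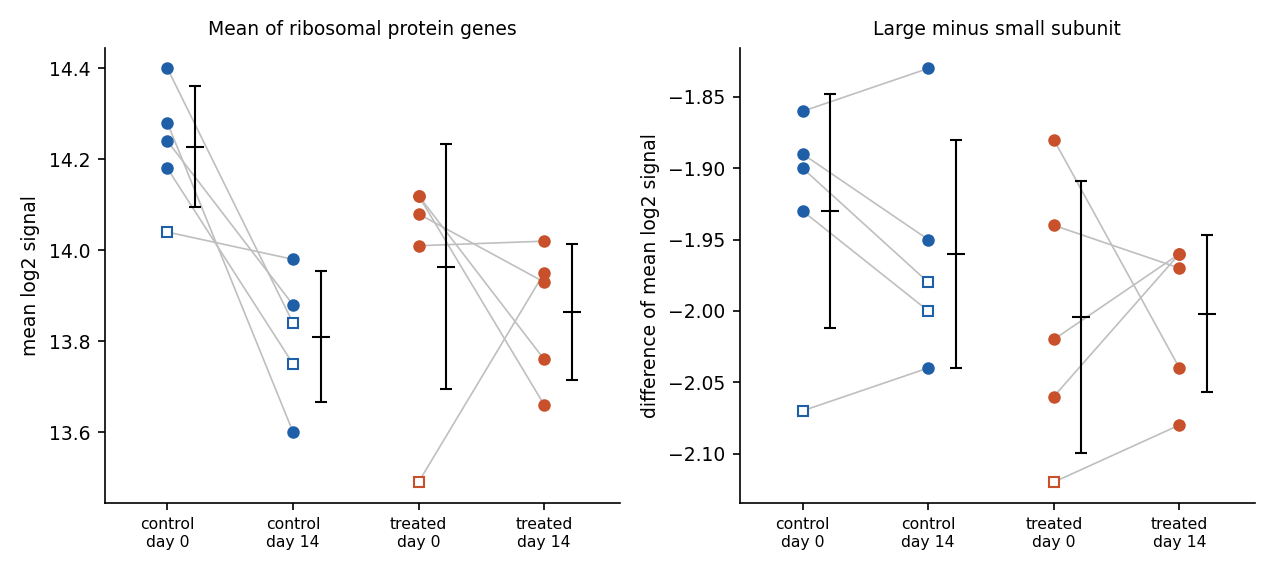
Mean log2 signal of 79 ribosomal protein genes (left) and the mean of 48 large minus that of 31 small subunit genes (right), by group. Points are arrays, open squares arrays of slide 6, grey lines join the arrays of an animal, and black marks are the group mean ± SD (n = 5). Control day 14 lies below control day 0 without overlap, and the subunit difference overlaps in all 4 groups.

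In fresh muscle, most ribosomal protein genes had lower values in treated animals, by little, and no gene passed the test. The log2 fold change, treated against control, was below 0 for 75 of 81 genes, with a median of -0.21 against -0.01 over all tested probes. The median was -0.23 for the large and -0.18 for the small subunit. By limma, 0 of 81 genes passed, against 2.45% of all probes in either direction, 1.32% higher and 1.13% lower. At an unadjusted p under 0.05, 8 of 81 passed (9.88%), all lower, against 17.3% of all probes. Within scan sessions 1, 2 and 3 the median was -0.21, -0.12 and -0.47, session 1 having 1 treated array and session 3 having 1 array per group. Without animal DE27 it was -0.15, with 67 genes below 0, and without the 4 arrays of slide 6 it was -0.17, with 69 genes below 0.

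The smallest p values belonged to RPL36A, RPL39 and RPL26, all of the large subunit. RPL39 and RPL26 sit near the tunnel through which the new protein leaves. Log2 signal of RPL36A was 13.08, 12.99, 13.02, 13.25 and 13.00 in control day 0 and 11.72, 12.35, 12.64, 12.88 and 12.34 in treated day 0. Every treated array was below every control array, with a log2 fold change of -0.68 ± 0.20 (limma adjusted p = 0.102). RPL39 was at 10.07, 9.73, 10.01, 9.91 and 10.11 in controls and at 8.52, 9.43, 9.52, 9.60 and 9.32 in treated animals. These groups did not overlap either, and the difference was -0.69 ± 0.20 (limma adjusted p = 0.108). RPL26 differed by -0.45 ± 0.14 (limma adjusted p = 0.123).

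With RPL24, 4 genes had groups that did not overlap at day 0, all lower in treated animals. That is 4.94% of the genes, beside 2.96% of all probes that were lower without overlap and 5.88% in either direction. RPL24 was between 16.68 and 16.86 in controls and between 16.14 and 16.62 in treated animals. Among the genes above 0 were RPS27 at 0.16 ± 0.18 and RPL9 at 0.18 ± 0.48, both with overlapping groups. RPL9 was -0.20 without slide 6.

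After 14 days of storage the difference between treated and control muscle was close to 0. Of 81 genes, 36 were below 0, and the median log2 fold change was 0.01 against 0.04 over all tested probes. It was 0.01 for the large and 0.03 for the small subunit. By limma, 0 of 81 genes passed, against 0.0713% of all probes, 0.0259% higher and 0.0454% lower. At an unadjusted p under 0.05, 1 gene passed (1.23%) against 10.4% of all probes, and no gene had groups without overlap, against 2.29% of all probes in either direction and 1.11% lower. The side of 0 was not stable: the median was -0.11 after quantile normalization and in the authors' series table, and -0.06, 0.37 and -0.30 within slides 2, 4 and 5. Each of these slides held 1 control day 14 array, and slide 5 also only 1 treated one.

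That gene was RPL4, a large subunit protein whose loop lines the exit tunnel. Its log2 signal was 10.04, 12.43, 10.47, 11.17 and 11.33 in control day 14 and 12.49, 12.22, 11.94, 11.94 and 11.97 in treated day 14. The treated arrays lay close together and K6 reached into their range, with a log2 fold change of 1.02 ± 0.38 (limma adjusted p = 0.402). The lowest control values, of K3 and K8, are those of slide 6, which held no treated day 14 array. RPS27A differed by 0.63 ± 0.32, RPL7 by -0.44 ± 0.25, RPL35 by -0.33 ± 0.21 and RPL26L1 by -0.23 ± 0.17, none of which passed.

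**Figure D2:**
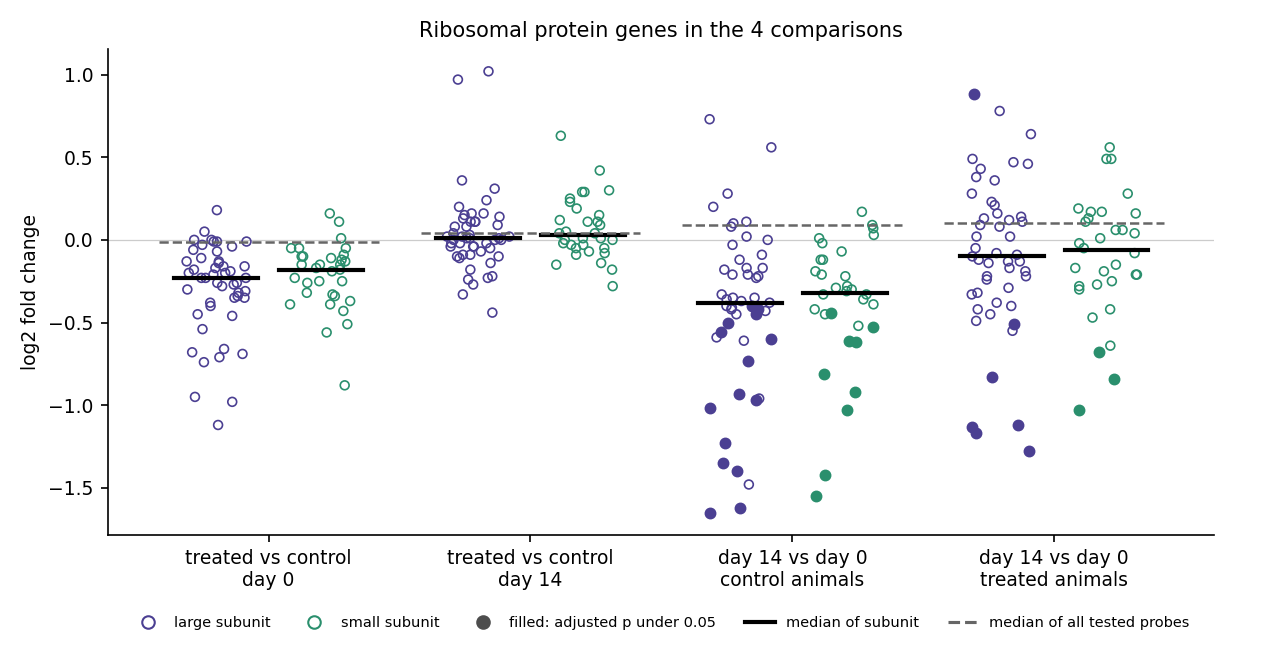
Log2 fold change (vertical axis) of 81 ribosomal protein genes in the 4 comparisons, large (49) and small (32) subunit apart. Each point is a gene, filled where the limma adjusted p was under 0.05; black bars are subunit medians and dashed lines the median of all 15431 tested probes. The control storage comparison holds 24 filled points, all below 0, the treated one 10, and both treatment comparisons none.

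After storage of control muscle, 24 of the 81 genes had fallen and none had risen. The genes that fell made up 29.6% of the ribosomal protein genes, beside 17.4% of all probes that fell, while 21.7% of all probes rose and 39.1% passed in either direction. The median log2 fold change, day 14 against day 0, was -0.36 against 0.09 over all tested probes, and 67 genes were below 0. These genes were far brighter than most probes, with a mean of 14.40 against 7.86 on the day 0 array of K3. Among them the dimmer ones fell more: change and mean signal had a Spearman rho of 0.51, and of 0.38 in treated animals. The probes they are set beside were not matched for brightness. Both subunits took part: 15 of 49 (30.6%) and 9 of 32 (28.1%) fell, and their medians were -0.38 and -0.32. For 18 genes (22.2%) every day 14 array was below every day 0 array, against 11.9% of all probes. With RPL29, higher without overlap, 19 genes (23.5%) had groups apart, against 25% of all probes. Of the 24 genes, 20 were lower at day 14 in every animal with both values.

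The count depended on the setting more than the direction did. With the replicate block, which compares the paired samples of each animal, 15 genes fell, all of them among the 24. The 9 lost were RPL4, RPL10A, RPL12, RPL14, RPL26, RPLP0, RPS4X, RPS15A and RPS24. Without the 4 arrays of slide 6 it was also 15. Without animal K3 it was 12, and without K8 or without K9 it was 11. Scaling each array on its median gave 51 genes lower with a median of -0.65, where the median of all probes was -0.20. Quantile normalization and the series table each gave 14 lower and 2 higher. The share of all probes that fell under these settings is not given here, nor for those in treated animals below. Whether the genes fell more often than all probes under them, the replicate block included, was therefore not tested. The median over the genes was -0.39, -0.36 and -0.22 within sessions 1, 2 and 3. Session 1 held 1 control day 14 array, and session 3 held 1 control day 0 array.

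RPS26, a small subunit protein at the exit channel of the messenger RNA, had the smallest adjusted p. Its log2 signal was 14.29, 14.00, 14.07, 14.17 and 13.97 in control day 0 and 12.36, 12.52, 12.63, 12.02 and 13.20 in control day 14. The lowest day 0 array lay well above the highest day 14 array, and K10 had the smallest change. The fall was -1.55 ± 0.21, or 2.93-fold (limma adjusted p = 0.000678). In treated animals it was at 13.59, 14.01, 14.04, 14.01 and 14.34 at day 0 and at 13.50, 12.74, 13.21, 12.72 and 12.68 at day 14. Here too the groups did not overlap, with DE27 nearly level, and the fall was -1.03 ± 0.21 (limma adjusted p = 0.00539).

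RPL22, an RNA-binding protein of the large subunit, was at 8.12, 7.84, 7.75, 8.20 and 7.94 in control day 0 and at 6.57, 5.61, 6.89, 5.86 and 6.84 in control day 14. It fell by 1.62 on the log2 scale in controls (SE 0.26, limma adjusted p = 0.00144), with no overlap and all 5 animals lower. In treated animals it was at 7.33, 7.64, 7.69, 7.98 and 7.46 at day 0 and at 7.20, 6.25, 6.77, 6.40 and 5.82 at day 14. Again no arrays overlapped, and RPL22 fell by 1.13 (SE 0.25, limma adjusted p = 0.00746). Its probe was dim, above background on 4 of 5 arrays in control day 14. With normexp background correction the values were -0.42 in controls and -0.16 in treated animals, and neither passed.

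RPL30 and RPL37A, both of the large subunit, fell in both treatments by like amounts. RPL30 was at 14.09, 14.16, 14.27, 14.33 and 14.27 in control day 0 and at 13.11, 12.41, 13.23, 12.59 and 13.63 in control day 14. It was at 13.85, 13.99, 14.14, 13.95 and 14.27 in treated day 0 and at 12.88, 12.47, 13.31, 13.19 and 12.76 in treated day 14. All 10 animals were lower at day 14 and no groups overlapped between days. The change was -1.23 ± 0.22 in controls (limma adjusted p = 0.00233) and -1.12 ± 0.19 in treated animals (limma adjusted p = 0.00212). RPL37A went from 9.28 ± 0.67 (SD, n = 5) to 7.88 ± 0.52 in controls and from 9.01 ± 0.56 to 7.74 ± 0.33 in treated animals. Its change was -1.40 ± 0.34 and -1.28 ± 0.27, with limma adjusted p of 0.00887 and 0.00627. In controls it missed the threshold without slide 6, at -1.19 (limma adjusted p = 0.0558).

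**Figure D3:**
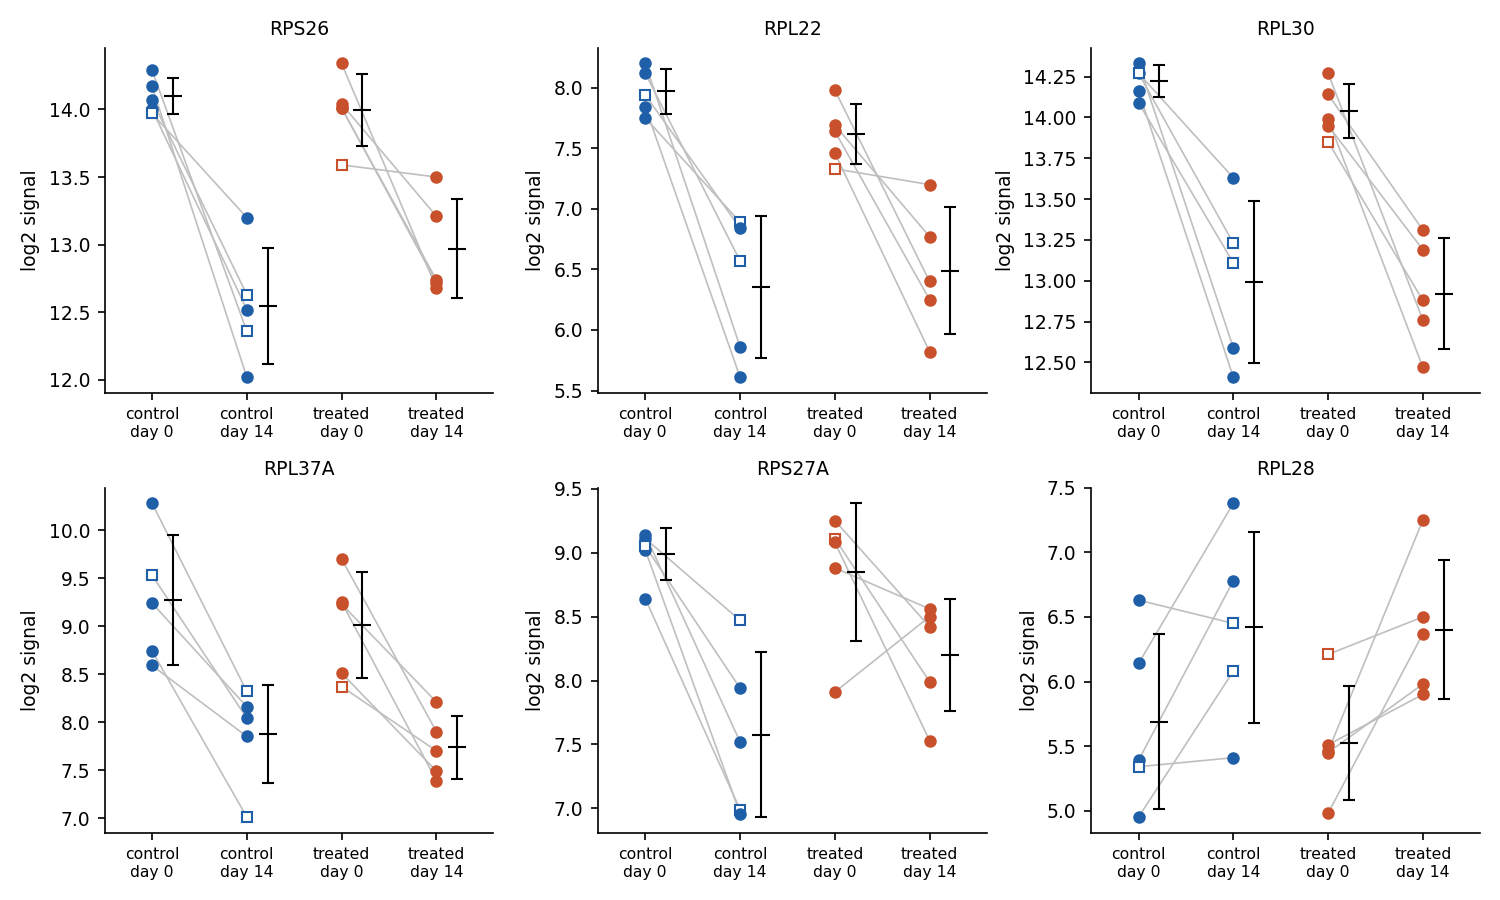
Log2 signal of RPS26, RPL22, RPL30, RPL37A, RPS27A and RPL28 by group. Points are arrays, open squares arrays of slide 6, grey lines join the arrays of an animal, and black marks are the group mean ± SD (n = 5). RPS26, RPL22, RPL30 and RPL37A are lower at day 14 in all 10 animals, while RPL28 is higher in all 5 treated animals and in 4 of 5 controls.

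The ubiquitin fusion gene RPS27A, which makes a small subunit protein joined to ubiquitin, was at 9.11, 9.14, 8.64, 9.02 and 9.05 in control day 0. It was at 8.47, 7.52, 6.99, 6.96 and 7.94 in control day 14, below every day 0 array. The fall was -1.42 ± 0.28 (limma adjusted p = 0.0035). In treated animals it did not pass, at -0.64 ± 0.29 (limma adjusted p = 0.115), and DE30 was higher at day 14. FAU, which joins a small subunit protein to a ubiquitin-like one, was at 0.03 ± 0.15 in controls and -0.02 ± 0.17 in treated animals, with overlapping groups.

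The stalk of the large subunit, which recruits the elongation factors, is made of RPLP0, RPLP1 and RPLP2. RPLP0 fell by 0.42 (SE 0.14, limma adjusted p = 0.04) in controls and by 0.51 (SE 0.18, limma adjusted p = 0.0475) in treated animals, being lower in all 10 animals. It passed under 4 of 17 other settings in controls, which gave -0.70 to -0.31, and 10 of 16 in treated animals, which gave -0.84 to -0.42. Leaving out K3, K6, K8 or K9, or DE29, DE30, DE31 or DE32, ended the call. So did the replicate block, with limma adjusted p of 0.0974 in controls and 0.0791 in treated animals. RPLP1 was at -0.18 ± 0.23 and 0.43 ± 0.25, and RPLP2 at 0.20 ± 0.16 and 0.28 ± 0.16, none of which passed. RPLP2 was higher at day 14 in all 5 control and 4 of 5 treated animals.

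Several ribosomal proteins have a paralog, and 6 paralogs were tested. In controls 3 of them fell (50%, beside 17.4% of all probes) and all 6 were below 0, with a median of -0.80. In treated animals 2 fell (33.3%, beside 11.8% of all probes), with a median of -0.38. Both counts include RPL22L1, which was not above background at day 14. Without the paralogs, 21 of the other 75 genes fell in controls (28%) and the median was -0.33. RPS27L, the paralog of RPS27 that is known as a p53 target, fell by 1.03 (SE 0.23, limma adjusted p = 0.00566) in controls and by 0.84 (SE 0.24, limma adjusted p = 0.0239) in treated animals. RPS27 itself fell by 0.81 (SE 0.18, limma adjusted p = 0.00554) and by 0.68 (SE 0.24, limma adjusted p = 0.0496). The latter call was lost under 9 of 16 other settings, which gave -1.01 to -0.48, among them those without DE29, DE30, DE31 or DE32 and the replicate block (limma adjusted p = 0.113). That of RPS27L in treated animals was lost under 5 of 16 settings, all 16 giving -1.17 to -0.62: without DE27, DE29, DE31 or DE32 and with the replicate block (limma adjusted p = 0.0669).

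RPL22L1, the paralog of RPL22, was dim, well above background on 4 of 5 arrays in each day 0 group and on none at day 14. It entered the test only through its day 0 arrays, so the signal filter favoured a fall and its calls add no support. It is still counted among the 24 genes that fell in controls and the 9 in treated animals. With the main processing it was at least 2.27-fold lower at day 14 in controls (limma adjusted p = 0.0216). In treated animals it was at least 1.41-fold lower (limma adjusted p = 0.0355). Neither bound holds under other background corrections. These bounds set the day 0 mean against the mean of the lowest signal that counted as well above background on each day 14 array, or the probe's own value where higher. The measured means were 4.55 and 2.90 in controls and 3.81 and 2.63 in treated animals. The day 0 arrays not above background, K10 at 2.76 and DE27 at 2.32, were both on slide 6. The call was lost without K3, K6 or K8 in controls and without DE29, DE30, DE31 or DE32 in treated animals, and with normexp background correction the sign turned, to 0.59 in controls, which did not pass, and to 1.07 in treated animals, which passed as a rise (limma adjusted p = 0.00877).

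RPL36AL, the paralog of RPL36A, fell by 1.02 (SE 0.25, limma adjusted p = 0.01) in controls, a call lost without K9 and with normexp correction over settings that gave -1.31 to -0.11, and was at -0.05 ± 0.45 in treated animals. RPL36A fell by 0.97 (SE 0.21, limma adjusted p = 0.0049) in controls and was at -0.38 ± 0.31 in treated animals. RPL7L1 was at -0.35 ± 0.16 and -0.13 ± 0.16, and RPL26L1 at -0.45 ± 0.19 and -0.45 ± 0.18, and neither passed in either treatment.

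RPL3 and RPL3L, its paralog of striated muscle, had changes of opposite sign that did not pass. RPL3 was at 12.69, 12.35, 13.07, 12.31 and 12.43 in control day 0 and at 12.88, 13.47, 13.02, 13.63 and 12.66 in control day 14. The groups overlapped and 4 of 5 animals were higher, for a difference of 0.56 ± 0.23 (limma adjusted p = 0.0676). In treated animals all 5 were higher, with 0.64 ± 0.26 (limma adjusted p = 0.0856). RPL3L went from 14.95 ± 0.20 to 14.37 ± 0.60 in controls and from 14.65 ± 0.24 to 14.33 ± 0.35 in treated animals. The differences were -0.59 ± 0.27 and -0.32 ± 0.21.

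RPL28, of the large subunit, was the 1 gene that rose. Its probe was dim, with a mean of 5.52 in treated day 0, though above background on all 20 arrays. In treated animals it was at 6.21, 5.46, 5.45, 4.98 and 5.51 at day 0 and at 6.50, 7.25, 5.98, 6.37 and 5.90 at day 14. All 5 animals were higher at day 14, although the groups overlapped through DE27 at day 0, and the rise was 0.88 ± 0.29 (limma adjusted p = 0.0412). It held under 8 of 16 other settings, which gave 0.55 to 1.18, and was lost with the replicate block (limma adjusted p = 0.0511) and without DE29, DE30, DE31 or DE32. In controls the difference was 0.73 ± 0.39 and did not pass. RPL29 was at 0.28 ± 0.13 in controls, where every day 14 array was above every day 0 array, and at 0.38 ± 0.17 in treated animals, neither of which passed.

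Several other genes did not pass in either treatment. RPL5 and RPL11, which with 5S RNA bind MDM2 and so link ribosome assembly to p53, were at -0.35 ± 0.21 and -0.37 ± 0.14 in controls and at 0.02 ± 0.19 and -0.22 ± 0.15 in treated animals. RPL11 at day 14 was below day 0 on every control array (limma adjusted p = 0.0587). RPS6, the substrate of S6 kinase, was at 0.09 ± 0.14 and 0.19 ± 0.16. RPS3 was at 0.07 ± 0.13 and 0.04 ± 0.16, RPS14 at -0.19 ± 0.14 and 0.06 ± 0.15, and RPSA, the laminin receptor, at 0.01 ± 0.25 and -0.17 ± 0.31 with 1 array missing in each day 14 group.

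The reference genes RPL13A, RPL19 and RPL32 were at 0.00 ± 0.23, -0.21 ± 0.18 and -0.17 ± 0.45 in controls. They were at -0.09 ± 0.25, 0.09 ± 0.16 and -0.12 ± 0.23 in treated animals. RPL32 was dim and spread widely, between 5.69 and 8.46 in control day 0. RPL10, which is added late in assembly, was at -0.21 ± 0.18 and -0.13 ± 0.19. RPS19, mutated in Diamond-Blackfan anaemia, fell by 0.53 (SE 0.15, limma adjusted p = 0.0195) in controls and was at -0.42 ± 0.18 in treated animals. Its call in controls was lost under 6 of 17 other settings, which gave -0.81 to -0.35, among them those without K3, K8 or K9.

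Of the remaining genes that fell in controls, RPL35 fell by 0.73 (SE 0.16, limma adjusted p = 0.00584) and RPL39 by 0.93 (SE 0.18, limma adjusted p = 0.00296). RPL12, RPL14, RPL15 and RPS16 were at -0.50, -0.56, -0.60 and -0.61, and RPL10A, RPL26, RPS15A and RPS24 at -0.40, -0.45, -0.62 and -0.44. These 8 genes, apart from RPL26, are named here after their values were seen. RPL10A lacked 1 control day 14 array. Of the 8, RPL15 and RPS16 still passed with the replicate block, and the limma adjusted p of the other 6 was between 0.0592 and 0.117. RPL26 passed under 9 of 17 other settings, which gave -0.74 to -0.26, and not without K3, K8 or K9 or without slide 6. RPS4X fell by 0.92 (SE 0.32, limma adjusted p = 0.041) and RPL4 by 1.35 (SE 0.47, limma adjusted p = 0.0386), with overlapping groups. Without K3, K8 or K9 neither passed, nor with the replicate block (limma adjusted p = 0.0571 and 0.0623), and over 17 other settings RPS4X was between -1.23 and -0.71 and RPL4 between -1.75 and -0.98.

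In treated muscle fewer genes passed: 9 fell and RPL28 rose. The 9 are 11.1% of the genes beside 11.8% of all probes that fell, and the 1 is 1.23% beside 17.8% of all probes that rose. The median log2 fold change was -0.09 against 0.10 over all probes, with 46 genes below 0. The large subunit was at -0.10 and the small at -0.06. For 5 genes (6.17%) every day 14 array was below every day 0 array, beside 8.11% of all probes. With RPS2, higher without overlap, it was 6 (7.41%), beside 20.4% of all probes. Without DE27 the median was -0.24 and 13 genes fell, 2 rose. Without DE29 or DE32 the median was 0.00, with 5 and 4 genes passing, and without DE31 5 genes passed. With the replicate block 6 of the 9 genes fell and none rose, the calls of RPL28, RPLP0, RPS27 and RPS27L being lost. Within sessions 1 and 2 the median was -0.24 and -0.16, session 1 having 1 treated day 0 array. With scan session as a block it was -0.20, with 55 genes below 0.

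All 9 genes that fell in treated animals also fell in controls, which is 100% of the treated and 37.5% of the control list. The same share over all probes was not computed, so this overlap cannot be called particular to ribosomal protein genes. They were RPL22, RPL22L1, RPL30, RPL35, RPL37A, RPLP0, RPS26, RPS27 and RPS27L. RPL35 was at -0.83 ± 0.20 in treated animals (limma adjusted p = 0.0119) and missed the threshold without DE32, over settings that gave -1.16 to -0.72. Across the 81 genes the storage changes in both treatments had a Pearson r of 0.64 (Spearman 0.64), beside 0.85 across all 15431 probes. These comparisons share no arrays, but genes are not independent replicates and the arrays share slides.

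The difference between treatments in the storage change was tested directly. By limma, 0 of 81 genes and 0 of 15431 probes (0%) passed. At an unadjusted p under 0.05 it was 2 genes (2.47%), RPS2 at 0.61 ± 0.22 and RPL24 at 0.49 ± 0.22, against 3.46% of all probes. The adjusted p was 0.999 for both. The median over the genes was 0.24 against 0.04 over all probes, with 70 of 81 above 0 and the same median in both subunits. It was 0.14 without DE27, 0.08 after quantile normalization and 0.14 in the series table. RPS2 in treated animals was higher at day 14 on every array, at 0.49 ± 0.18 (limma adjusted p = 0.0566), and in controls it was at -0.12 ± 0.16.

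**Figure D4:**
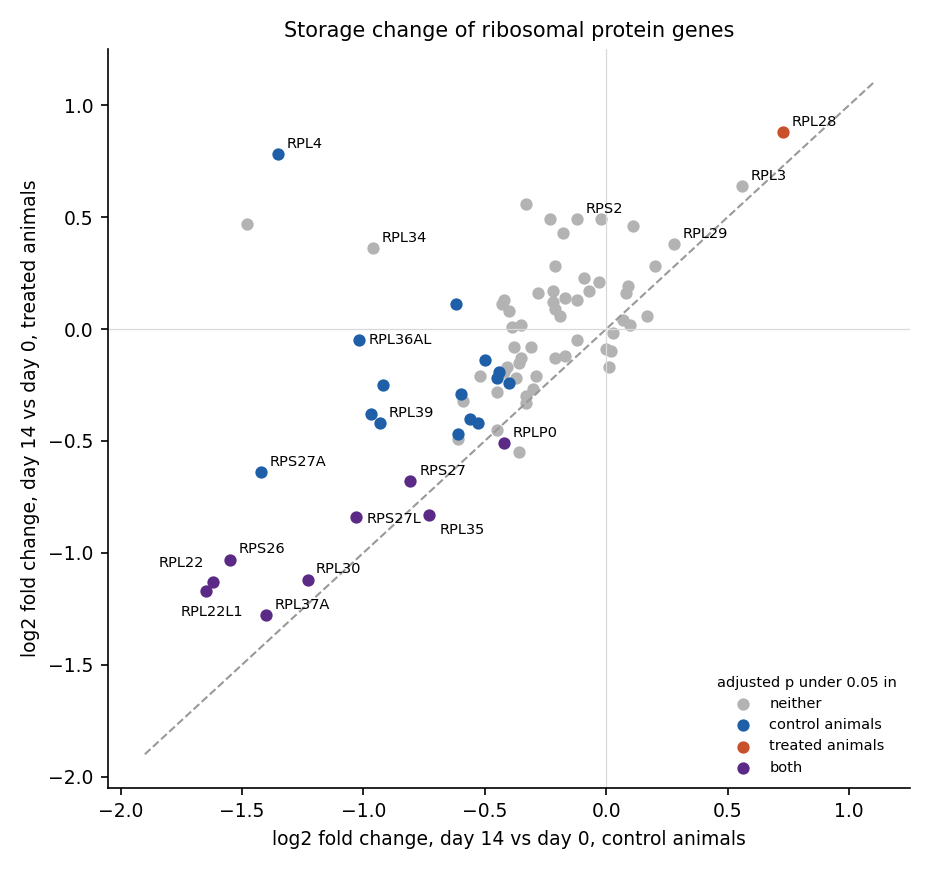
Log2 fold change, day 14 against day 0, of 81 ribosomal protein genes in control (horizontal axis) and treated animals (vertical axis), coloured by where the limma adjusted p was under 0.05. The dashed line marks equal change. The 9 genes that fell in both lie at the lower left and RPL28 at the upper right, while RPL4 and RPL34 lie far above the line.

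A few genes followed slide 6. For each gene, arrays of a slide were compared with the other arrays of their groups, and the differences averaged. Over all ribosomal protein genes the median difference for slide 6 was -0.06, but 4 genes (4.94%) were below -1, against 1.45% of all probes. Among them were RPL4 at -2.60, RPL34 at -2.09 and RPL22L1 at -1.49. On the other 5 slides at most 1 gene was below -1. RPL34 was picked for this after its values were seen.

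RPL34 was at 13.09, 12.96, 13.24, 13.26 and 10.96 in control day 0, at 11.47, 12.64, 11.18, 11.53 and 11.91 in control day 14 and at 7.90, 13.24, 12.94, 12.86 and 11.80 in treated day 0. The arrays of slide 6 were the lowest of their groups, with DE27 far below all others. DE32 at day 0, on slide 5, was also low. RPS4X, of the small subunit, was at 12.61 for K10 and 11.57 for DE27 at day 0, and between 13.06 and 14.08 on the other day 0 arrays.

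Storage changes of these genes moved with that slide. RPL4 in treated animals was at 0.78 ± 1.05 with all arrays and -0.41 without slide 6. RPS4X in treated animals was at -0.25 ± 0.37 and fell by 0.63 without it (limma adjusted p = 0.0404). What sets slide 6 apart was not tested.

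**Figure D5:**
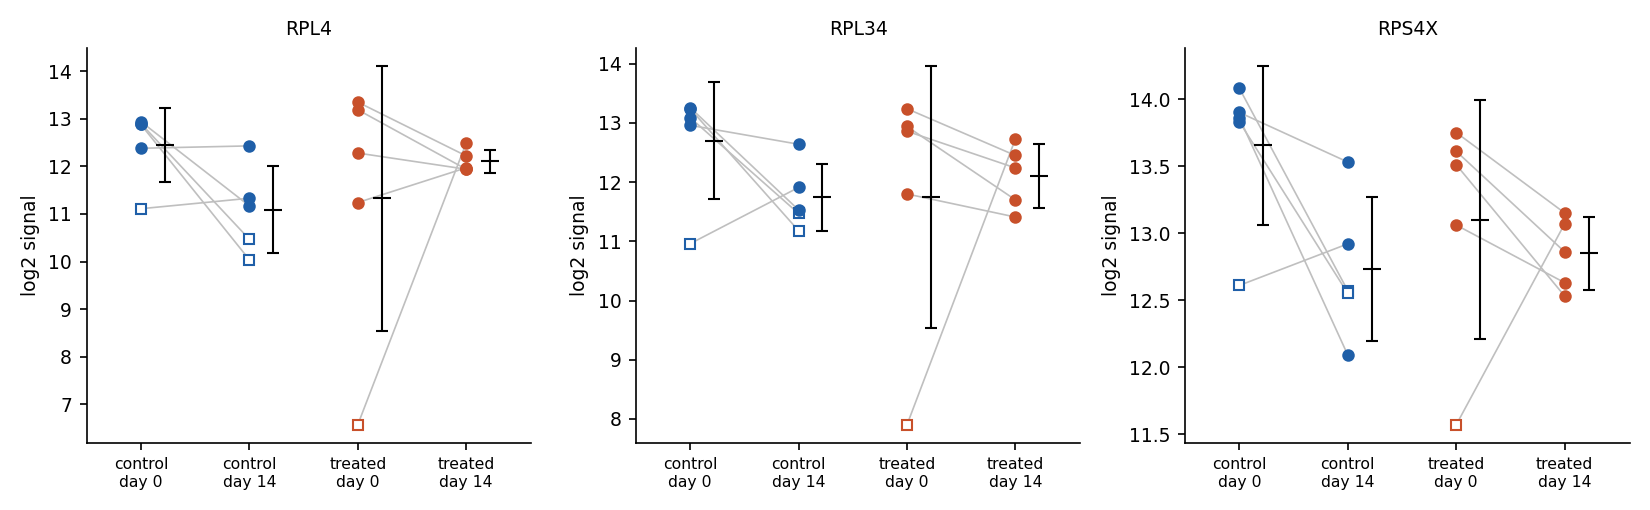
Log2 signal of RPL4, RPL34 and RPS4X by group. Points are arrays, open squares arrays of slide 6, grey lines join the arrays of an animal, and black marks are the group mean ± SD (n = 5). In all 3 panels the slide 6 arrays are the lowest of both day 0 groups.

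Genes that work with the ribosome are given beside the shares of all probes, of which 17.4% fell and 21.7% rose in controls and 11.8% fell and 17.8% rose in treated animals. Mitochondrial ribosomal proteins, which build the ribosome of the mitochondrion, had 36 of 73 genes lower (49.3%) and 1 higher in controls, with a median of -0.60, and 24 lower (32.9%) and 1 higher in treated animals, with a median of -0.44. MRPS23 fell by 1.89 (SE 0.25, limma adjusted p = 0.00062) in controls and by 1.95 (SE 0.21, limma adjusted p = 0.000194) in treated animals. In fresh muscle these genes lay on the other side of 0 from the cytosolic ones, with a median of 0.23, treated against control, and 55 of 73 above 0. One of them, MRPS18A, passed there (1.37%, beside 1.32% of all probes higher), at 1.55 ± 0.20 (limma adjusted p = 0.00612). Most other lists lay on the same side as the cytosolic genes in that comparison. Below 0 were 18 of 21 other TOP messages (median -0.27) and 11 of 12 RNA polymerase I genes (-0.25). So were 27 of 34 initiation factors (-0.16), 9 of 12 elongation and release factors (-0.16) and 50 of 66 assembly factors (-0.09). The mTOR list had a median of 0.05.

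Translation initiation factors had 17 of 34 genes lower (50%) and 1 higher in controls, with a median of -0.61, and 12 lower (35.3%) and 2 higher in treated animals, with a median of -0.36. The 3 subunits of eIF2, which brings the first transfer RNA, fell in controls, EIF2S1 by 1.39 (SE 0.21), EIF2S2 by 1.23 (SE 0.24) and EIF2S3 by 1.35 (SE 0.27). The cap-binding protein EIF4E fell by 0.86 (SE 0.15, limma adjusted p = 0.00198). EIF3F, of the eIF3 scaffold, rose by 0.84 (SE 0.19, limma adjusted p = 0.00664). Elongation and release factors had 6 of 12 lower (50%) and none higher in controls and 5 lower (41.7%) and none higher in treated animals. EEF1G, a subunit of the factor that reloads EEF1A with GTP, fell by 1.54 (SE 0.30, limma adjusted p = 0.00302) in controls.

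Of 66 factors of ribosome assembly, 20 fell and 4 rose in controls, and 11 fell and 6 rose in treated animals, with medians of -0.22 and -0.09. In either direction that is 36.4% and 25.8%, below the 39.1% and 29.6% of all probes. The falls alone made up 30.3% in controls, above the 17.4% of all probes, and 16.7% in treated animals, above 11.8%. The rises made up 6.06% and 9.09%, below 21.7% and 17.8%. WDR12, of the complex that matures the large subunit RNA, fell by 2.25 (SE 0.27, limma adjusted p = 0.000484) in controls, and the helicase gene DDX10 rose by 0.91 (SE 0.13, limma adjusted p = 0.000949). RNA polymerase I, which makes most ribosomal RNA, had 5 of 12 genes lower (41.7%) and 2 higher in controls, with a median of -0.49. In treated animals 2 were lower (16.7%) and 2 higher, with a median of 0.29. POLR1B, its second largest subunit, fell by 0.91 (SE 0.21, limma adjusted p = 0.00786) in controls.

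Other TOP messages had 9 of 21 genes lower (42.9%) and 3 higher in controls, with a median of -0.20, and 4 lower (19.0%) and 2 higher in treated animals, with a median of -0.01. This list shares genes such as EEF1G with the lists of translation factors. BTF3, of the nascent chain complex, fell by 1.35 (SE 0.20, limma adjusted p = 0.00114) in controls, and the RNA-binding protein gene HNRNPA1 rose by 2.19 (SE 0.27, limma adjusted p = 0.000525). Of 21 genes of mTOR signalling to the ribosome, 5 fell and 1 rose in controls and 3 fell and 2 rose in treated animals. In either direction that is 28.6% and 23.8%, below the shares of all probes. Falls made up 23.8% in controls and 14.3% in treated animals, beside 17.4% and 11.8% of all probes. Rises made up 4.76% and 9.52%, beside 21.7% and 17.8%. RPTOR, the partner of mTOR in complex 1, fell by 0.96 in controls (SE 0.24, limma adjusted p = 0.00917), LARP1 by 0.71 (SE 0.17, limma adjusted p = 0.00929), and RICTOR, of complex 2, rose by 1.12 (SE 0.19, limma adjusted p = 0.00197). At day 0 the 1 gene of that list that passed was MAX, the partner of MYC, lower by treatment at -1.0 ± 0.22 (limma adjusted p = 0.0394). That is 4.76% of the list, beside 1.13% of all probes that were lower.

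Marker lists of other cell types differed in how many genes passed with storage. Of 9 endothelial markers 7 rose in controls (77.8%) and 4 in treated animals (44.4%), beside 21.7% and 17.8% of all probes. Their summed signal was between 15300 and 20600 in control day 0, 25000 and 71100 in control day 14, 22400 and 31000 in treated day 0, and 36100 and 80100 in treated day 14. Of 6 smooth muscle and pericyte markers 5 rose in controls (83.3%), from sums between 18300 and 23600 to sums between 23400 and 99600. In treated animals none of them passed, nor at an unadjusted p under 0.05, with sums between 16800 and 32600 at day 0 and between 15200 and 62500 at day 14. Of 9 fibroblast and matrix markers 4 fell in each treatment (44.4%), beside 17.4% and 11.8% of all probes. The sums were between 31200 and 68900 in control day 0, 19000 and 91000 in control day 14, 29100 and 72200 in treated day 0, and 8860 and 42800 in treated day 14. Of 5 lymphocyte markers 2 rose in controls and 1 in treated animals, of 4 red blood cell genes 2 and 1, and of 5 nerve markers 1 and 0. Of 5 adipocyte markers 0 passed in controls and 2 fell in treated animals. Of 7 macrophage and 4 satellite cell markers 0 passed by limma with storage in either treatment. At an unadjusted p under 0.05, 1 macrophage marker passed in treated animals. Between treatments at day 0, 2 of the 4 satellite cell markers were lower in treated animals (50%, beside 1.13% of all probes). There, 1 of the 9 endothelial markers was higher (11.1%, beside 1.32% of all probes), and no marker of the other lists passed. The part of these cell types in the changes of ribosomal protein genes was not tested.

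Of the 14 skeletal muscle markers, 3 fell (21.4%) and 1 rose (7.14%) in controls, beside 17.4% and 21.7% of all probes. Their summed signal was between 1270000 and 1710000 at day 0 and between 1340000 and 1700000 at day 14. In treated animals 5 rose (35.7%) and none fell, beside 17.8% and 11.8% of all probes. Here the sums were between 1070000 and 1550000 at day 0 and between 1630000 and 2300000 at day 14. The ranges overlapped in controls and not in treated animals. At day 0, 10 of the 14 markers were below 0, treated against control, with a median of -0.27, and none passed. Their part in the result was not tested.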

How the data were processed

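Total RNA of 20 muscle samples from 10 animals was hybridised in 1 colour to bovine Agilent arrays (design 15354, per the file headers). Per the file headers, Feature Extraction 9.5.1.1 gave the processed signal, a background-subtracted intensity per spot, which the authors deposited for each array. A table of the whole series, also deposited, holds intensity values on a linear scale, normalized between arrays by a method not given in the sources used here; the submitters' processing notes name R 2.11.1. Treatment, day and animal were taken from titles and characteristics. The free-text description contradicts them on the day for 10 samples and was not used, and 1 treated day 0 title was read as animal DE31 by its number.

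From the deposited intensity values, log2 signal was computed, the array's own 75th percentile was subtracted, and the mean percentile was added back. Outlier spots (935 over all arrays) and 1417 control spots were left out, and spots of a probe were averaged. A probe was tested if well above background on at least 5 of 20 arrays. Groups were compared with limma 3.58.1 in R 4.3.3 (statmod 1.5.0, data.table, version 1.17.8), with Benjamini-Hochberg adjustment over 15431 probes and a threshold of 0.05; each comparison used only its own groups, and the difference between treatments all 4. Scripts were tested on simulated data. Figures were drawn with matplotlib 3.10.9 (Python 3.11.15). Gene names came from the array annotation and a table of bovine genes (assembly ARS-UCD2.0), which named a gene for 16716 probes, and 6 of the 82 genes were found by their current symbol.

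The ribosomal protein genes, the other lists and the named genes were chosen with earlier results of these data known. The named genes were a list of 28 (paralogs, stalk, ubiquitin fusions, reference genes and others), all genes that passed in a comparison or, above 10, the 5 largest changes in each direction, and the 3 smallest p in a direction where none passed; some genes are not reported here. The animal number pairs day 0 and day 14 samples of the same animal. Over all probes, their deviations from the group means correlated between -0.15 and 0.28. Precision is limited by the 5 animals per group, and p-values measure the spread among them. Alternatives were other scalings and background corrections, signal filters, blocks for slide, session and animal, and leaving out each animal; leaving out slide 6 or the dimmest control day 14 array was chosen after seeing the data.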

Additional observations from a re-analysis of the deposited data

Results flagged for a closer look

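In 166 sets of 5 arrays (the named genes, their mean and the subunit difference, in each group), the highest or lowest array was checked for standing apart from the other 4 by Dixon's ratio, which chance exceeds in about 1 in 20 sets. It did so in 15 sets.

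On the control day 0 array of K10, on slide 6, RPL36AL was at 6.72, RPL9 at 13.07 and RPS4X at 12.61, all below the other 4 controls, and RPL35 was above them at 12.02. The treated day 0 array of DE27, also on slide 6, was the lowest of its group for RPL39 at 8.52, RPL3L at 14.23 and the mean over all ribosomal protein genes at 13.49, where the next lowest array was at 14.01.

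In control day 0, RPLP2 of K6 was at 15.80, RPS27A of K8 at 8.64, RPS27L of K3 at 12.61 and RPSA of K9 at 15.55, each the lowest. In control day 14, RPL3L of K9 was the lowest at 13.32. In treated day 0, RPS27A of DE30 was the lowest at 7.91. In treated day 14, RPL26L1 of DE27 was the highest at 10.22 and RPL36AL of DE29 the highest at 8.28.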

How the results depend on the processing

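Both treatment comparisons and the test of the difference between treatments had 0 genes past the threshold under every setting run. For storage in controls, where 24 genes passed with a median of -0.36, quantile normalization gave a median of -0.20, scaling on the median 51 genes and -0.65, and normexp background correction -0.55; 15 genes passed with the replicate block, and 15 without the arrays of slide 6, a setting chosen after seeing the data. For storage in treated animals, where 10 genes passed with a median of -0.09, scaling on the median gave 24 genes and -0.42, normexp 22 genes, and the replicate block 6. The median of large minus that of small subunit genes was 0.10 in controls and 0.07 in treated animals with normexp. Leaving out 1 animal gave 11 to 34 genes in controls and 4 to 15 in treated animals. RPL22L1, dim at day 14, reversed with normexp, to 0.59 in controls and 1.07 in treated animals; the cause was not tested. Scaling set the level against which changes are read: the median of all probes after storage was 0.09 and 0.10 in control and treated animals, -0.20 and -0.23 with median scaling, and 0.46 and 0.48 with normexp. Over 4101 repeats for single genes, 3672 kept direction and side of the threshold, 82 lost and 42 gained a call, and 303 changed sign without one. Averaging the 2 probes of RPL15 changed no count. The replicate block changed no other count by over 1.5 times.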
